A study of Mus musculus with 24 samples.

Results

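Complement is a set of plasma and cell surface proteins that mark and lyse microbes and damaged cells. In the classical pathway the protease C1r activates its partner C1s, which cleaves C4 and C2, and their fragments form the enzyme that cleaves C3. In the alternative pathway complement factor B joins cleaved C3 to form a second such enzyme, and the regulators C1 inhibitor, factor I and CD55 hold these steps in check. The liver makes most complement in plasma, and gut epithelial and stromal cells are known to make part of it locally.

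The genes described here are 8 complement components and regulators chosen by symbol from 23329 symbols in mouse colon libraries: C1ra, C2 and C4b of the classical pathway, C3, Cfb of the alternative pathway, and the regulators Serping1, Cfi and Cd55. All libraries came from C57Bl/6 mice carrying VilCre, a Cre recombinase driven by the villin promoter, which is active in gut epithelium. Controls carried VilCre alone, and transgenic mice were VilCre-CMVcaNrf2, with a constitutively active NRF2 transgene whose CMV promoter is named in the genotype. Dextran Sulfate Sodium (DSS), an agent that injures the colon lining, was the treatment in 2 of the 6 groups of 4 libraries. These groups were untreated epithelial cells of each genotype, untreated colon wall of each genotype, and colon wall with DSS of each genotype. Epithelial cells with DSS were not analysed here, and the sources used here give neither the age of the mice nor the dose or duration of DSS. The design text of the series speaks of 3 replicates per condition, whereas 4 libraries per group were used here. Some epithelial and wall libraries carry the same number in their file labels, and no label says whether these come from the same mouse, so whether the libraries are independent in the comparison of epithelial cells with wall is not known. Since no label ties a replicate to its own animal, each p-value speaks of the spread among these libraries, which may be partly technical.

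All 8 genes were in the files, and 7 of them passed the filter on low counts in each comparison; Cfi did not. C2, C4b and Cfb lie together on mouse chromosome 17 (build mm10, positions from the deposited files), at 34862602 to 34882100, 34728381 to 34743897 and 34856374 to 34862514, all on the minus strand. The gap between Cfb and C2 is 87 bases, so reads that run through from one into the other could not be told apart from reads of each. C3 lies apart on the same chromosome at 57203973 to 57228136 on the minus strand. C1ra is on chromosome 6 at 124512621 to 124523440 on the plus strand, and Serping1 is on chromosome 2 at 84765360 to 84775429 on the minus strand. Cd55 is on chromosome 1 at 130439030 to 130462740 on the minus strand, and Cfi is on chromosome 3 at 129836739 to 129875328 on the plus strand. Each gene was counted over its RefSeq transcript, 1 per gene, except Cfb with 2. C4b, C1ra and Cd55 have the close copies C4a, C1rb and Daf2, so their counts are uncertain by what the copies share. As counted, the copies were low in every group: the group means of C4a ran from 0.504 to 1.80 counts per 1000000 (CPM), those of Daf2 from 0 to 0.537 CPM, and those of C1rb from 0 to 0.0230 CPM. In epithelial cells C4b was low too. There C4a was at 0.857 CPM in control and 1.80 CPM in transgenic mice as group means, beside C4b at 3.12 and 4.41 CPM. The counts of C4b are therefore less certain there than in wall.

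The promoters of C3, C1ra and Cd55 are shown because 3 of the 8 genes matched the RefSeq promoter table used here; their rise with DSS, given further on, is shared with the other tested genes. They are the 300 bases from 250 before to 50 after the start, from RefSeq on GRCm38.p6, written on the strand of the gene. They lie at chr17:57228087-57228386 (minus), chr6:124512371-124512670 (plus) and chr1:130462695-130462994 (minus). Capitals mark matches, on either strand, to any of 5 motifs.
C3: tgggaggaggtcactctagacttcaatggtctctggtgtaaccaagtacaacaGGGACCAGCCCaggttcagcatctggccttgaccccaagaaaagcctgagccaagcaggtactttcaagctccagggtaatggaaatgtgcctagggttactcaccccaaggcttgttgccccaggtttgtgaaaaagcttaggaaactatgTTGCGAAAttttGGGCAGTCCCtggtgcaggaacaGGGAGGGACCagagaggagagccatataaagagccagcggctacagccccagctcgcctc
C1ra: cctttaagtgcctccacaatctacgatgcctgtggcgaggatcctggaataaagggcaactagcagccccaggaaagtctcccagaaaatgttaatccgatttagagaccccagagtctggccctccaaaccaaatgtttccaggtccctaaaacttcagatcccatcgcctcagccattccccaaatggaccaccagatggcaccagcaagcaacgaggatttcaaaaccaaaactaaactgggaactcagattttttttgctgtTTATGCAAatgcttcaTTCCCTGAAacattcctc
Cd55: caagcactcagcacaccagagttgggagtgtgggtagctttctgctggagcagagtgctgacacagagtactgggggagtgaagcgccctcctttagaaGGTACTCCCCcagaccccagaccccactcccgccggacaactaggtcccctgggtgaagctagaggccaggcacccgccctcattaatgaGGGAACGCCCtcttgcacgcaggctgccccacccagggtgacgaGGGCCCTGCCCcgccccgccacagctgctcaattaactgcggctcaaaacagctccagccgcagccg

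The motifs searched were an antioxidant response element (ARE, TGACNNNGC), the sequence NRF2 is known to bind, a STAT site (GAS, TTCNNNGAA), an interferon element (ISRE: TTTC, any 2 bases, TTTC), an NF-kB site (GGG, any 5 bases, CC) and a C/EBP site (TTGCNNAA). Of 32851 promoters of this length, 12.4% held the ARE letters, 8.3% the GAS letters, 3.44% the ISRE letters, 50.8% the NF-kB letters and 10.8% the C/EBP letters. C3 held NF-kB letters and a C/EBP match that begins 45 bases before the start. C1ra held a C/EBP match and a GAS match that begin at positions 17 and 33, counted from 1 at the start, with no shared base between them. Cd55 held NF-kB letters, which overlap in part with each other on opposite strands, as they do in C3. Neither the ARE nor the ISRE letters were in these 3 windows, which says nothing of sites elsewhere.

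Library totals ran from 6683803 to 15399862 counts in epithelial cells and from 20232309 to 154336039 in colon wall. Nfe2l2, the gene that encodes NRF2, was at 135.8 to 181 CPM in control and at 222 to 339 CPM in transgenic epithelial cells, in the direction of the labels; whether transgene reads were counted under this gene is not stated. The epithelial marker Epcam was at 1333 ± 262 CPM in control epithelial cells (SD, n = 4). That was no higher than in untreated control wall (1972 ± 497 CPM). The smooth muscle gene Myh11 was at 6.79 ± 3.10 CPM against 2925 ± 368 CPM. Epithelial markers differed in direction: Slc26a3 was at 160 ± 141 against 1295 ± 442 CPM, and Cdx2 at 193 ± 86.9 against 28.5 ± 19.4 CPM. Of 10 such markers, 3 were called lower and 1 higher in controls (edgeR adjusted p below 0.05), against 19.7% and 18.9% of all genes. In transgenic mice 2 were lower and 1 higher, against 23.5% and 20.0%. Control replicate 3 and transgenic replicate 1 of the epithelial cells stood apart. They had the highest sums of 10 epithelial markers, 34340 and 37630 CPM against 8356 to 14040 CPM in the other 6 epithelial libraries, and the lowest sums of 8 fibroblast markers, 7.85 and 20.4 CPM against 59.7 to 208 CPM. Results in epithelial cells are therefore given with and without them where a call changes. In bulk samples, fewer cells of a type and less RNA per cell cannot be told apart.

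**Figure D1:**
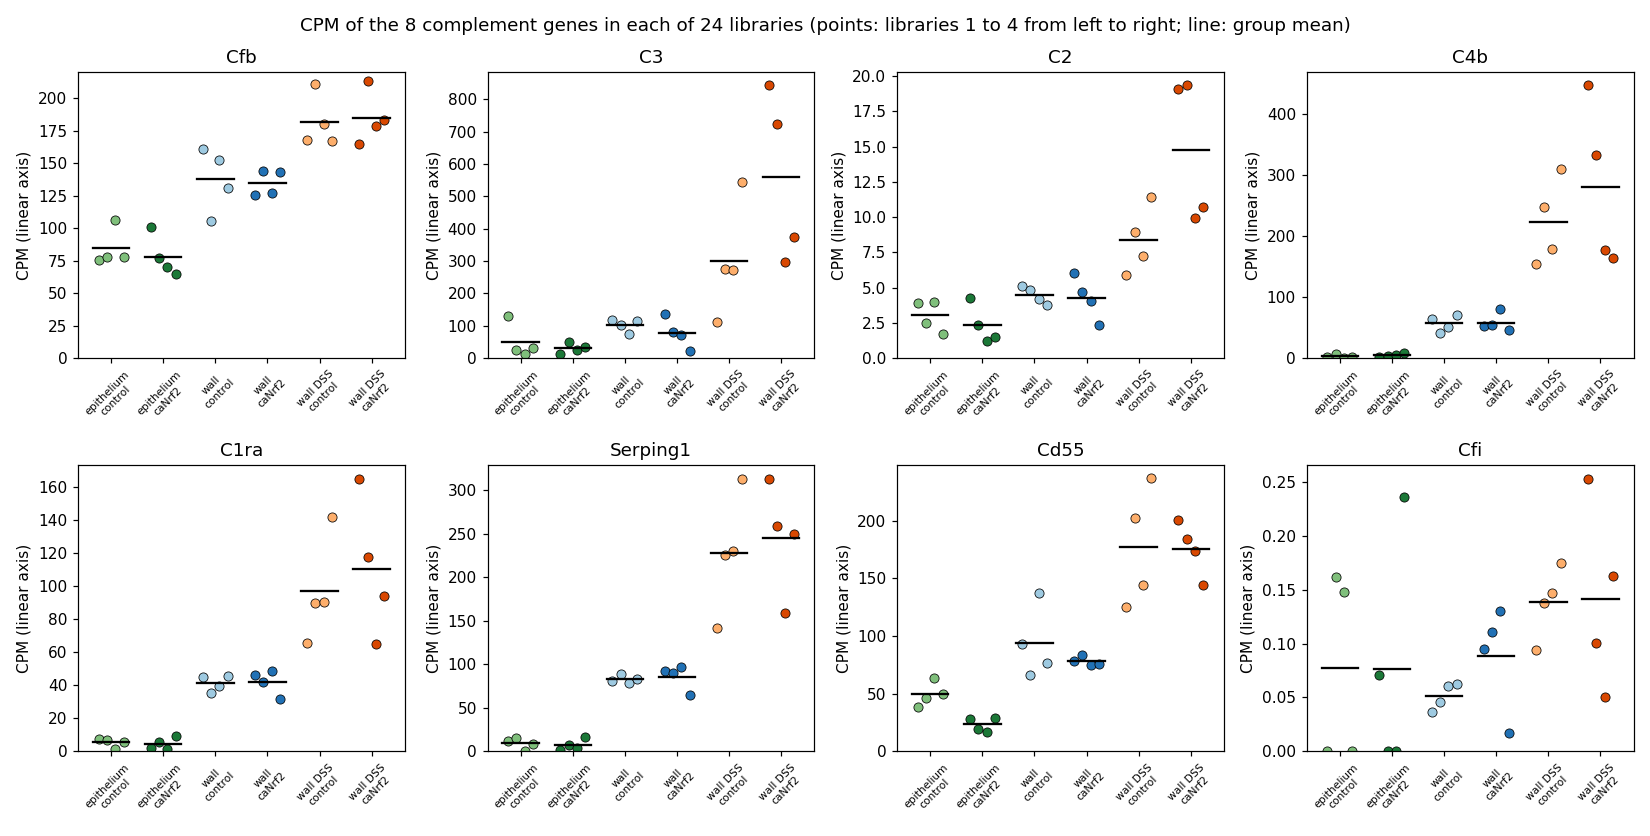
CPM (linear axes, each gene with its own range) of the 8 genes in all 24 libraries, grouped by tissue, genotype and treatment; each point is a library and each line a group mean. The 4 DSS-treated transgenic libraries lie above all untreated transgenic wall libraries for every gene but Cfi, and C4b, C1ra and Serping1 are near the bottom of the axis in epithelial cells.

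Levels differed widely between the genes. Per length, in transcripts per 1000000 (TPM), the level in untreated control wall was highest for Cfb at 82.8 ± 14.8 TPM (SD, n = 4). Serping1 followed at 77.7 ± 15.1 TPM and Cd55 at 60.3 ± 13.9 TPM, with spreads that overlap. Lower levels were those of C3 at 33.1 ± 10.3 TPM, C1ra at 25.1 ± 6.199 TPM and C4b at 17.5 ± 6.40 TPM. C2 was at 2.81 ± 0.362 TPM, and Cfi at 0.0425 ± 0.0126 TPM. In control epithelial cells the order of levels in TPM was another: Cfb at 56.6 ± 4.61 TPM and Cd55 at 36.2 ± 5.53 TPM led, while Serping1 was at 9.93 ± 6.59 TPM and C4b at 1.08 ± 0.953 TPM. In the DSS-treated transgenic wall Serping1 at 270.7 ± 111 TPM and C3 at 220 ± 138 TPM were highest, with a wide spread between libraries.

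All 7 tested genes were higher with DSS in the colon wall of both genotypes. In controls 7 of 7 were called higher (edgeR's quasi-likelihood test, Benjamini-Hochberg adjusted p below 0.05 over 16074 genes), where 23.1% of all genes tested were called higher. Libraries with and without DSS did not overlap for 5 of the 7, against 16.3% of all genes. In transgenic wall 7 of 7 were again called higher, against 23.1% of all genes, and all 7 did not overlap, against 18.2%. The median log2 fold change of the 7 genes was 1.32 in controls and 1.55 in transgenic wall, beside 0.063 and 0.0105 over all genes tested. Changes in log2 terms were smallest for Cfb and, among the point estimates, largest for C4b in controls and C3 in transgenic wall.

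C4b, which encodes the C4 protein of the classical pathway, was at 64.6, 41.3, 50.5 and 70.3 CPM in untreated control wall. With DSS the 4 control libraries were at 154, 248, 179 and 309 CPM. Every library with DSS was above every one without, and the log2 fold change was 2.06 ± 0.33 (SE, edgeR adjusted p = 0.000353). In transgenic wall C4b was at 52.7, 54.7, 79.8 and 45.2 CPM without DSS and at 446, 332, 177 and 164 CPM with it, again with no overlap. That change was 2.30 ± 0.33 (edgeR adjusted p = 0.000133). C1ra, the protease that starts the classical pathway, was at 44.97, 35.2, 39.3 and 45.4 CPM in untreated control wall and at 65.6, 89.6, 90.3 and 142 CPM with DSS. The groups did not overlap, and C1ra rose by 1.32 ± 0.26 on the log2 scale in controls (edgeR adjusted p = 0.00143). In transgenic wall it went from 46.0, 42.2, 48.4 and 31.9 CPM to 165, 118, 65.2 and 93.9 CPM. The log2 fold change there was 1.43 ± 0.27 (edgeR adjusted p = 0.000808).

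C2, the protease that C1s cleaves, was at 5.14, 4.81, 4.21 and 3.77 CPM in untreated control wall and at 5.91, 8.93, 7.23 and 11.4 CPM with DSS. The groups lie next to each other without overlap, and the log2 fold change was 0.996 ± 0.295 (edgeR adjusted p = 0.0141). In transgenic wall C2 was at 6.01, 4.67, 4.04 and 2.34 CPM without DSS and at 19.1, 19.4, 9.94 and 10.7 CPM with it. Replicates 1 and 2 were the high ones with DSS, and the log2 fold change was 1.84 ± 0.30 (edgeR adjusted p = 0.000335). The call for C2 in controls was lost without untreated control replicate 3 (0.87, edgeR adjusted p = 0.0548) and without DSS control replicate 4 (0.80, edgeR adjusted p = 0.0549). It was also lost among the 12 wall libraries whose file names start with the number 11 (0.69, edgeR adjusted p = 0.0574); the number 17 marks the fourth library of each wall group, and the labels do not say what it stands for.

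C3, the component on which all pathways meet, was at 118, 101, 74.2 and 115 CPM in untreated control wall and at 112, 276, 273 and 545 CPM with DSS. DSS replicate 1 lay within the untreated range and the other 3 above it, and the log2 fold change was 1.66 ± 0.49 (edgeR adjusted p = 0.014). In transgenic wall C3 was at 136, 80.3, 70.5 and 23.1 CPM without DSS and at 843, 724, 298 and 375 CPM with it. All 4 were above the untreated range, with a log2 fold change of 2.90 ± 0.51 (edgeR adjusted p = 0.000578). Like C2, C3 in controls lost its call without untreated control replicate 3 (1.44, edgeR adjusted p = 0.0542) and without DSS control replicate 4 (1.19, edgeR adjusted p = 0.0629). Cfb, which encodes factor B, was at 161, 105, 153 and 131 CPM in untreated control wall and at 168, 211, 180.1 and 167 CPM with DSS. The lowest DSS library was just above the highest untreated one, and the log2 fold change was 0.49 ± 0.14 (edgeR adjusted p = 0.011). With only these 8 libraries in the model the Cfb call was lost (0.41, edgeR adjusted p = 0.0575). In transgenic wall Cfb went from 126, 144, 127 and 143 CPM to 165, 213, 179 and 183 CPM, a log2 fold change of 0.48 ± 0.14 (edgeR adjusted p = 0.0116).

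Of the Cfb transcripts, NM_008198 held a mean of 98.1% to 100% of the gene's TPM in every group. In none of the 5 comparisons of genotype or DSS did this share pass an exact two-sided permutation test (adjusted p from 0.607 to 1, the smallest raw p that 4 against 4 allows being 0.0286). After adjustment over the 5 comparisons, a single comparison at that smallest raw p would not pass, so the adjusted test could not call 1 comparison alone. The lowest raw p seen in this permutation test was 0.343.

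Of the 3 regulators, Serping1 and Cd55 rose with DSS. Serping1, which encodes C1 inhibitor, the inhibitor of C1r and C1s, was at 80.2, 88.8, 78.4 and 83.5 CPM in untreated control wall and at 142, 225, 230.1 and 312 CPM with DSS. There was no overlap, and the log2 fold change was 1.55 ± 0.23 (edgeR adjusted p = 0.000234). In transgenic wall Serping1 went from 91.9, 89.4, 96.5 and 64.8 CPM to 313, 258, 159 and 249.9 CPM. The change was again 1.55 ± 0.23 (edgeR adjusted p = 0.000178). Cd55, which encodes the membrane protein that speeds the decay of the C3-cleaving enzymes, was at 93.3, 66.4, 138 and 76.6 CPM in untreated control wall and at 125, 202, 144 and 237 CPM with DSS. Untreated replicate 3 reached into the DSS range, and the log2 fold change was 1.02 ± 0.22 (edgeR adjusted p = 0.00202). In transgenic wall Cd55 was at 78.6, 83.2, 75.2 and 75.8 CPM without DSS and at 200.1, 184, 173 and 144 CPM with it. These groups were well apart, with a log2 fold change of 1.19 ± 0.22 (edgeR adjusted p = 0.000679).

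Cfi, which encodes factor I, the protease that cuts deposited C3 and C4 fragments, had 0 to 16 counts in any library and was not tested in the main fits. Its counts were 2, 1, 5 and 7 in untreated and 3, 6, 3 and 8 in DSS-treated control wall, and 2, 16, 4 and 1 in untreated and 11, 3, 2 and 4 in DSS-treated transgenic wall. These counts overlap and come from libraries of unequal depth. Scaled to depth, Cfi was at 0.0366 to 0.0623 CPM in untreated and 0.0939 to 0.175 CPM in DSS-treated control wall. Those ranges did not overlap, as was so for 16.3% of all genes tested. In transgenic wall the ranges, 0.0168 to 0.130 and 0.0509 to 0.253 CPM, did overlap. With no filter on low counts, the DSS effect in controls was 1.38 ± 0.57 on the log2 scale (edgeR unadjusted p = 0.0259, adjusted p = 0.0724). No comparison of Cfi passed the threshold, so with these few counts no difference was called.

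**Figure D2:**
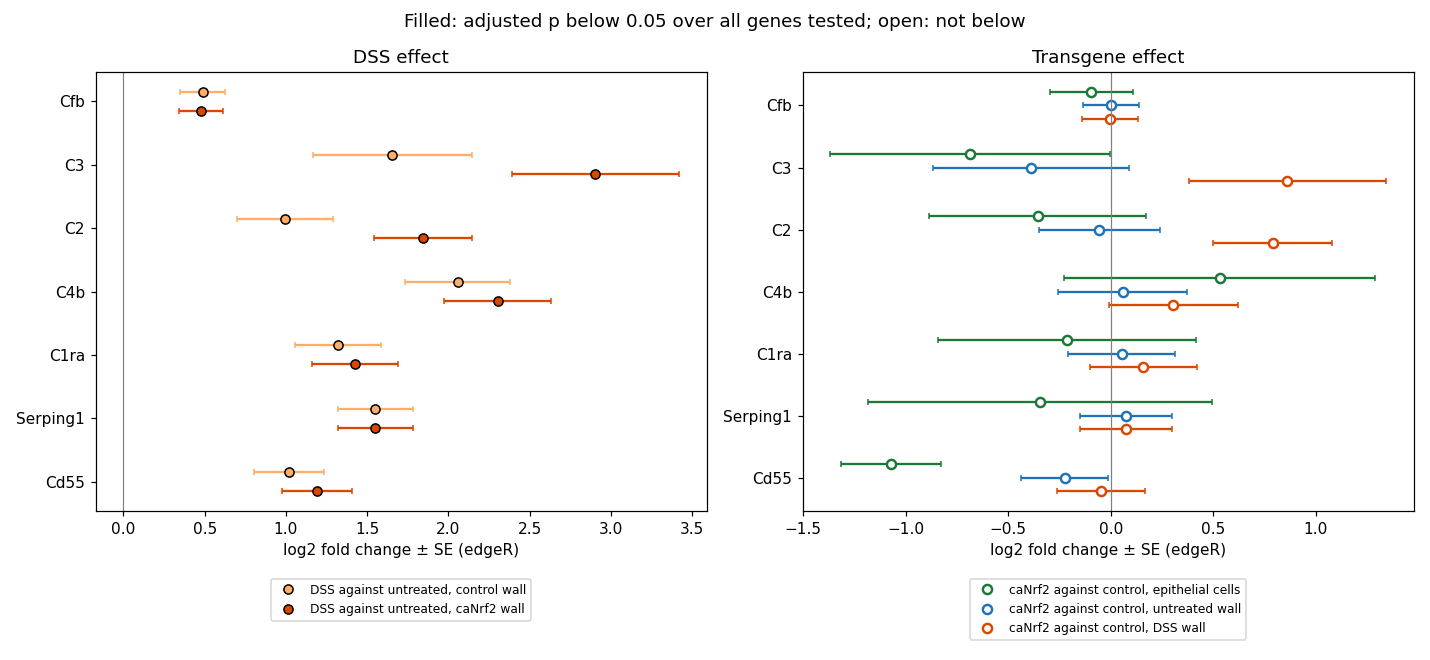
Log2 fold changes with their SE from edgeR for the 7 tested genes, for DSS in each genotype on the left and for the transgene in epithelial cells, untreated wall and DSS-treated wall on the right; filled points passed an adjusted p of 0.05. All 14 DSS effects are filled and above 0, from 0.48 for Cfb to 2.90 for C3, and none of the 21 transgene effects is filled.

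Markers of some cell types moved with DSS as well. In both genotypes 8 of 8 fibroblast markers and 8 of 8 endothelial markers were called higher, and of the 9 macrophage markers 9 were in controls and 8 in transgenic wall. Beside these, 23.1% of all genes tested were called higher in each genotype. The summed fibroblast markers were at 1011 to 1197 CPM in untreated and at 2088 to 3879 CPM in DSS-treated control wall, and at 987 to 1252 CPM and 1869 to 3696 CPM in transgenic wall. The summed macrophage markers went from 169 to 277 CPM up to 309 to 879.8 CPM in controls, and from 183 to 269 CPM up to 341 to 569 CPM in transgenic wall. Of the 6 neutrophil markers 6 were called higher in controls and 5 in transgenic wall, and their sum went from 7.93 to 10.9 CPM up to 18.6 to 42.7 CPM in controls and from 7.13 to 9.60 CPM up to 24.03 to 49.5 CPM in transgenic wall. Of 10 colonocyte and epithelial markers, 1 was called lower in controls and 2 in transgenic wall, not far from the 16.1% and 18.1% of all genes called lower. Of the 8 smooth muscle markers 2 and 3 were called higher, of the 9 T and B cell markers 3 and 1, and of the adipocyte and mesothelial markers 0. Against the 23.1% of all genes called higher, these few calls are not read as movement of those cell types. None of the fibroblast, macrophage or neutrophil markers was at 0 throughout a group of wall libraries. Hepatocyte markers were low, summing to 55.9 to 103 CPM without and 6.68 to 21.8 CPM with DSS. Among the DSS-treated libraries, control replicate 4 and transgenic replicates 1 and 2 had the highest fibroblast sums (3879, 3696 and 3232 CPM), and the same 3 libraries had the highest C3. Those 3 libraries also had the highest mesothelial sums (32, 24.2 and 46.0 CPM, against 3.29 to 19.2 CPM in the others). For the macrophage markers, control replicate 2 (668 CPM) stood above transgenic replicates 1 and 2 (569 and 548 CPM). What part of the rise in the complement genes goes with these cell types was not tested.

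**Figure D3:**
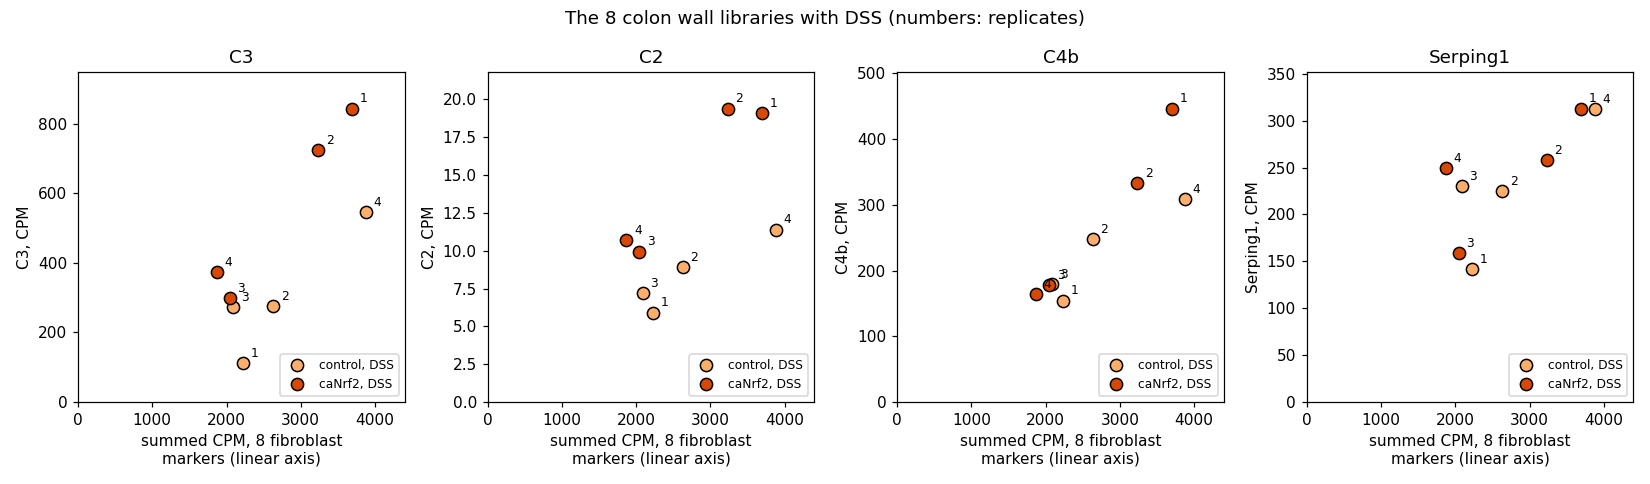
CPM of C3, C2, C4b and Serping1 against the summed CPM of 8 fibroblast markers in the 8 DSS-treated colon wall libraries (linear axes; points are libraries, numbered by replicate). Control replicate 4 and transgenic replicates 1 and 2, with fibroblast sums of 3232 CPM or more, hold the 3 highest values of C3, C2, C4b and Serping1. The same 3 libraries also have the highest mesothelial marker sums, not shown in the figure.

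Between genotypes, none of the 7 tested genes passed the main test in any of 3 settings. In DSS-treated wall 0 of 7 passed (edgeR, 16074 genes, 0.0933% of all genes called), 1 gene was below an unadjusted p of 0.05, and DESeq2 called 0 of them. That gene was C2, whose value in each library is given above, with means of 14.8 ± 5.15 CPM in transgenic and 8.37 ± 2.37 CPM in control wall (SD, n = 4). The groups overlapped, and the log2 fold change was 0.79 ± 0.29 (edgeR adjusted p = 1). C3 was next, at 560.1 ± 265 CPM against 302 ± 179 CPM, a log2 fold change of 0.86 ± 0.48 (edgeR adjusted p = 1). For the other 5 tested genes the log2 fold changes lay between -0.05 for Cd55 and 0.31 for C4b. The summed adipocyte markers were at 149 to 311 CPM in these transgenic libraries and at 49.5 to 143 CPM in controls, with no overlap, and the mesothelial ones at 15.5 to 46.0 CPM and at 3.29 to 32 CPM, which overlapped. Single untreated libraries also had high adipocyte sums, 303 CPM in control wall replicate 2 and 150 CPM in transgenic wall replicate 1. The untreated medians were 33.8 CPM in control and 37.9 CPM in transgenic wall. Between genotypes in DSS-treated wall, none of the 7 adipocyte and 5 mesothelial markers was called by edgeR or DESeq2, and 2 adipocyte and 0 mesothelial markers were below an unadjusted p of 0.05. Their part in the values of C2 and C3 was not tested.

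In untreated wall, too, 0 of 7 passed (edgeR, 0.224% of all genes called), 0 were below an unadjusted p of 0.05, and DESeq2 called 0. Log2 fold changes ran from -0.39 ± 0.48 for C3 to 0.07 ± 0.23 for Serping1, and all groups overlapped. Whether DSS acted differently by genotype was tested as an interaction. By edgeR 0 of 7 genes passed (0% of all genes called), 0 were below an unadjusted p of 0.05 and DESeq2 called 0 of them. The largest differences of the DSS effect, transgenic minus control, were 1.25 ± 0.68 for C3 (edgeR adjusted p = 0.725) and 0.85 ± 0.41 for C2 (edgeR adjusted p = 0.656). For Serping1 the difference was 0 ± 0.32 (edgeR adjusted p = 1).

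In epithelial cells 0 of 7 genes passed (edgeR, 12941 genes, 0% of all genes called), 1 was below an unadjusted p of 0.05, and DESeq2 called 1 of them. That gene was Cd55. It was at 38.5, 46.2, 64.0 and 49.5 CPM in control and at 28.3, 19.3, 17.1 and 29.0 CPM in transgenic epithelial cells. Every transgenic library was below every control library, as were those of 4.32% of all genes tested. The log2 fold change was -1.07 ± 0.24 (edgeR adjusted p = 0.225). DESeq2 gave -1.06 with an adjusted p of 0.0192, among 165 genes it called in all. Without the pair of libraries that stood apart the change was -1.01 ± 0.20 (edgeR adjusted p = 0.0253), in a fit that called 835 genes in all. Over all alternatives the edgeR and DESeq2 adjusted p for Cd55 ran from 0.0192 to 0.844, and the sign was the same in each.

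The other 6 tested genes overlapped between genotypes in epithelial cells. Their log2 fold changes ran from -0.69 ± 0.68 for C3 to 0.53 ± 0.76 for C4b. In the same comparison 0 of 8 fibroblast and 0 of 10 epithelial markers were called by edgeR or DESeq2, and 0 were below an unadjusted p of 0.05. In untreated wall Cd55 was at 93.5 ± 31.4 CPM in control and 78.2 ± 3.65 CPM in transgenic mice (SD, n = 4; log2 fold change -0.22 ± 0.21, edgeR adjusted p = 0.792). The difference between the transgene's effect on Cd55 in epithelial cells and in untreated wall was -0.87 ± 0.31 (edgeR adjusted p = 0.511), and without the libraries that stood apart -0.80 ± 0.30 (edgeR adjusted p = 0.214). For this difference 0 of 7 genes passed by edgeR (0% of 15073 genes called), Cd55 alone was below an unadjusted p of 0.05, and DESeq2 called 0 of them.

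Against untreated wall, 5 of the 7 tested genes were lower in epithelial cells of each genotype. In controls these were C4b, Serping1, C1ra, Cd55 and Cfb, where 19.7% of all genes were called lower, and 4 of them did not overlap, against 26.0% of all genes. In transgenic mice the same 5 genes were called lower, against 23.5% of all genes, and all 5 did not overlap, against 28.0%. C4b fell most, from 56.7 ± 13.2 CPM in control wall to 2.58, 7.10, 0.444 and 2.37 CPM in control epithelial libraries (log2 fold change -4.001 ± 0.567, edgeR adjusted p = 4.95e-05). Serping1 was at 12.2, 15.2, 0.814 and 8.70 CPM in control epithelial cells, against 82.7 ± 4.54 CPM in wall (log2 fold change -2.99 ± 0.62, edgeR adjusted p = 0.00127). C1ra was at 7.31, 6.78, 1.63 and 5.93 CPM there, against 41.2 ± 4.90 CPM in wall (log2 fold change -2.76 ± 0.47, edgeR adjusted p = 0.000231). Replicate 3 was the lowest control library for all 3 genes, and also for the fibroblast markers.

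The decline was smaller for Cfb and Cd55. Cfb was at 75.4, 78.0, 106.5 and 77.7 CPM in control epithelial cells, and the log2 fold change against wall was -0.52 ± 0.17 (edgeR adjusted p = 0.0218). Cd55 fell by 0.72 ± 0.22 on the log2 scale in controls (edgeR adjusted p = 0.0141) and by 1.59 ± 0.22 in transgenic mice (edgeR adjusted p = 3.76e-05). The control calls for Cfb and Cd55 were each lost in part of the fits with 1 library left out, Cfb without untreated wall replicate 1 or epithelial replicate 1, 2 or 4 (edgeR adjusted p = 0.0556 to 0.0671) and Cd55 without untreated wall replicate 3 or epithelial replicate 1 (edgeR adjusted p = 0.051 and 0.0515). C2 and C3 did not pass in either genotype. C3 was at 131.5, 26.3, 12.4 and 30.04 CPM in control and at 11.6, 49.2, 26.0 and 34.98 CPM in transgenic epithelial cells. Control replicate 1 stood above the untreated control wall and the other 7 epithelial libraries below it, and the control log2 fold change was -0.85 ± 0.61 (edgeR adjusted p = 0.296). Without that library it was -1.98 ± 0.52 (edgeR adjusted p = 0.00919), and the transgenic one, -1.19 ± 0.62 with all libraries (edgeR adjusted p = 0.132), then also passed (-1.19 ± 0.46, edgeR adjusted p = 0.0486). C2 was at 3.91, 2.50, 3.998 and 1.71 CPM in control and at 4.25, 2.36, 1.199 and 1.53 CPM in transgenic epithelial cells. Its transgenic change of -0.70 ± 0.41 (edgeR adjusted p = 0.178) was -1.22 ± 0.41 without transgenic replicate 1 (edgeR adjusted p = 0.0218) and -1.22 ± 0.40 without both libraries that stood apart (edgeR adjusted p = 0.0176).

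In transgenic mice C4b, Serping1, C1ra and Cfb had log2 fold changes of -3.60 ± 0.55, -3.48 ± 0.64, -3.09 ± 0.48 and -0.63 ± 0.17 against wall (edgeR adjusted p from 8.96e-05 to 0.00573). Fibroblast and smooth muscle markers were lower in the epithelial libraries of both genotypes, 8 of 8 each. Of the 9 macrophage markers 6 were called lower in controls and 8 in transgenic mice, and of the 9 T and B cell markers 5 and 6. Of the 10 epithelial markers 3 and 2 were called lower, against 19.7% and 23.5% of all genes. The summed fibroblast markers were at 7.85 to 208 CPM in control and at 20.4 to 169 CPM in transgenic epithelial cells, and none was at 0 in all libraries of a group. How much of the remaining C4b, C1ra and Serping1 in the epithelial libraries goes with those cells was not tested.

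**Figure D4:**
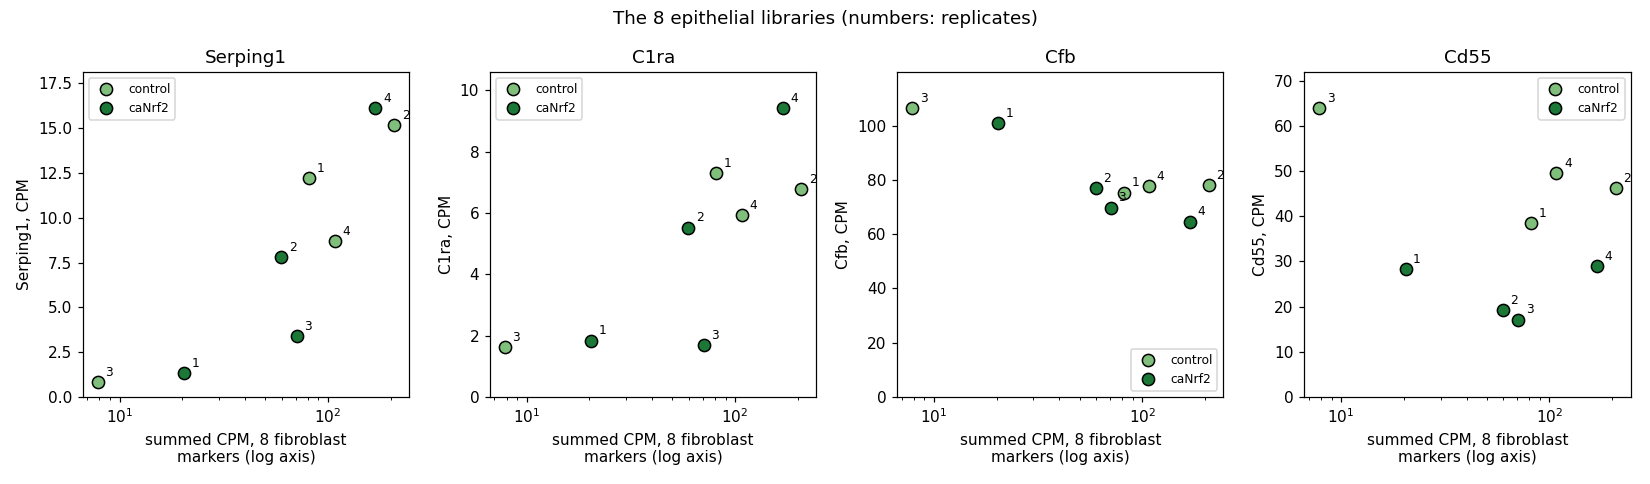
CPM (linear axis) of Serping1, C1ra, Cfb and Cd55 against the summed CPM of 8 fibroblast markers (log axis) in the 8 epithelial libraries, numbered by replicate. Control replicate 3 and transgenic replicate 1, at 7.85 and 20.4 CPM of fibroblast markers, have the lowest Serping1 (0.814 and 1.34 CPM) and the highest Cfb (106.5 and 100.9 CPM), and the genotypes are apart for Cd55. For C1ra control replicate 3 is lowest (1.63 CPM), but transgenic replicate 3 (1.69 CPM) lies below transgenic replicate 1 (1.84 CPM).

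The order of the groups was alike for most of the genes. C2, C3, C4b, Cfb, C1ra and Serping1 had the highest mean CPM in DSS-treated transgenic wall, then in DSS-treated control wall, then in untreated wall and last in epithelial cells. For Cd55 the DSS-treated groups stood at 177 ± 51.7 CPM in controls and 175 ± 23.5 CPM in transgenic wall, which did not differ beyond their spread. No neighbouring pair of genotypes within a tissue and treatment differed beyond the sum of their SDs, except Cd55 in epithelial cells (49.6 ± 10.7 against 23.4 ± 6.08 CPM). The mean CPM of Cfi did not differ beyond its spread between any neighbours in its order. Untreated and DSS-treated control wall, which are not neighbours there, were at 0.0513 ± 0.0125 and 0.138 ± 0.0337 CPM, further apart than their summed SDs but from few counts.

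Across all 24 libraries the most alike pair among the 8 genes was C1ra and Serping1, with a mean absolute difference of 0.348 between their centred log2 CPM. Among 14145 genes with a mean of at least 1 CPM, the closest to Serping1 were Dcn, which encodes the matrix protein decorin (0.230), and Ccdc80 (0.258). Closest to C4b were Ltbp1 (0.395) and Col4a1, a basement membrane collagen gene (0.408), and closest to C1ra were 4632428N05Rik (0.326) and Rab34 (0.327). C3 was most like Aebp1 (0.502) and Npr1 (0.508), and C2 most like Crlf2 (0.343) and Pde9a (0.369). Cfb was most like Cap1 (0.118) and Camk2d (0.131), and AW112010 was among the genes most like Cd55 (0.275). The distances of genes that vary little, such as Cfb, are small for that reason. Cfi is left out here since its counts are too low.

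The rest of the pathway was counted from lists of its other genes. Of all genes tested, 23.1% were called higher with DSS in each genotype, and 16.1% were called lower in controls and 18.1% in transgenic wall, with medians of 0.06 and 0.01 on the log2 scale. Among the classical and lectin initiation genes, 16 were in the files and 11 were tested in wall. With DSS 7 of these 11 rose in controls and 9 in transgenic wall, with a median log2 fold change of 1.38 and 1.03 over the 11. C1qa, C1qb and C1qc, which encode the chains of the recognition protein C1q, rose by 1.67 ± 0.28, 1.85 ± 0.30 and 1.77 ± 0.32 in controls (edgeR adjusted p from 0.00043 to 0.000697). Their log2 fold changes in transgenic wall were 1.02 ± 0.28, 1.03 ± 0.30 and 0.94 ± 0.31 (edgeR adjusted p from 0.00902 to 0.0236). C1s, which encodes the partner protease of C1r, rose by 1.24 ± 0.25 in controls and 1.53 ± 0.25 in transgenic wall (edgeR adjusted p = 0.0014 and 0.000335). Colec12, a collectin on cell surfaces, rose by 1.39 ± 0.20 and 1.63 ± 0.20, and Fcna, which encodes ficolin A of the lectin pathway, by 1.80 ± 0.32 and 1.40 ± 0.32 (edgeR adjusted p from 5.83e-05 to 0.00287). C1q is known as a product of macrophages, whose markers are given above.

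Among the 9 alternative pathway and terminal genes, 5 were tested in wall. With DSS 3 rose and 1 fell in controls, and 3 rose in transgenic wall (medians over the 5 of 1.15 and 2.63 on the log2 scale). The terminal component gene C7 rose by 3.21 ± 0.52 and 4.22 ± 0.54 on the log2 scale from group means of 0.104 and 0.0855 CPM (edgeR adjusted p = 0.000399 and 7.37e-05). C6, another terminal component gene, rose by 2.57 ± 0.72 and 2.65 ± 0.72 (edgeR adjusted p = 0.0102 and 0.00855). Cfp, which encodes properdin, the stabilizer of the alternative pathway enzyme, rose by 1.15 ± 0.25 and 1.18 ± 0.25 (edgeR adjusted p = 0.00223 and 0.0018). C8g fell by 1.40 ± 0.34 in controls (edgeR adjusted p = 0.00431). Cfd, which encodes factor D, the protease that cuts factor B and is abundant in adipocytes, is named after its values were seen. It was at 62.2 to 147 CPM in DSS-treated transgenic wall and at 6.22 to 38.7 CPM in DSS-treated control wall (log2 fold change 2.24 ± 1.11, edgeR adjusted p = 1), and it is also 1 of the 7 adipocyte markers.

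Of 13 tested regulators other than Serping1 and Cd55, 4 rose and 2 fell with DSS in controls, and 5 rose and 2 fell in transgenic wall. The shares that rose, 4 and 5 of 13, are near the 23.1% of all genes, and so are the 2 of 13 that fell near the 16.1% and 18.1%; the medians over the 13 were 0.48 and 0.72 on the log2 scale. Vtn, which encodes vitronectin, rose by 1.09 ± 0.28 in controls, as did Susd4 by 1.09 ± 0.29, and Csmd1 and Cpn2 by 1.91 ± 0.40 and 2.09 ± 0.55 in transgenic wall (edgeR adjusted p from 0.00177 to 0.00752). Cpn1, which encodes a subunit of the enzyme that inactivates complement peptides, fell by 1.23 ± 0.33 and 1.78 ± 0.34 (edgeR adjusted p = 0.00832 and 0.000915). C4bp fell by 0.49 ± 0.18 and 0.52 ± 0.18 (edgeR adjusted p = 0.0357 and 0.0259). Cr1l, the mouse membrane regulator known as Crry, was at 84.9 ± 18.3 and 79.6 ± 6.33 CPM in untreated and DSS-treated control wall (log2 fold change -0.01 ± 0.15, edgeR adjusted p = 0.981).

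The receptor list had 10 tested genes, of which 6 rose and 1 fell with DSS in controls and 5 rose and 1 fell in transgenic wall, against 23.1% of all genes higher in each (medians over the 10 of 1.23 and 0.999 on the log2 scale). Cd93 rose by 1.58 ± 0.29 and 1.29 ± 0.29, Itgam, a chain of complement receptor CR3 on myeloid cells, by 2.17 ± 0.44 and 1.66 ± 0.44, and C5ar1 by 1.42 ± 0.34 and 1.30 ± 0.34 (edgeR adjusted p from 0.000867 to 0.0068). C3ar1, the receptor gene for the C3a peptide, rose by 1.89 ± 0.39 in controls (edgeR adjusted p = 0.00164). C1qbp, which encodes a mostly mitochondrial protein named for binding C1q, fell by 1.10 ± 0.17 and 0.93 ± 0.17 (edgeR adjusted p = 0.000258 and 0.000581). No gene of these 4 lists was called for the transgene in any of the 3 settings by edgeR or DESeq2, and 1, an alternative pathway or terminal gene in DSS-treated wall, was below an unadjusted p of 0.05.

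**Figure D5:**
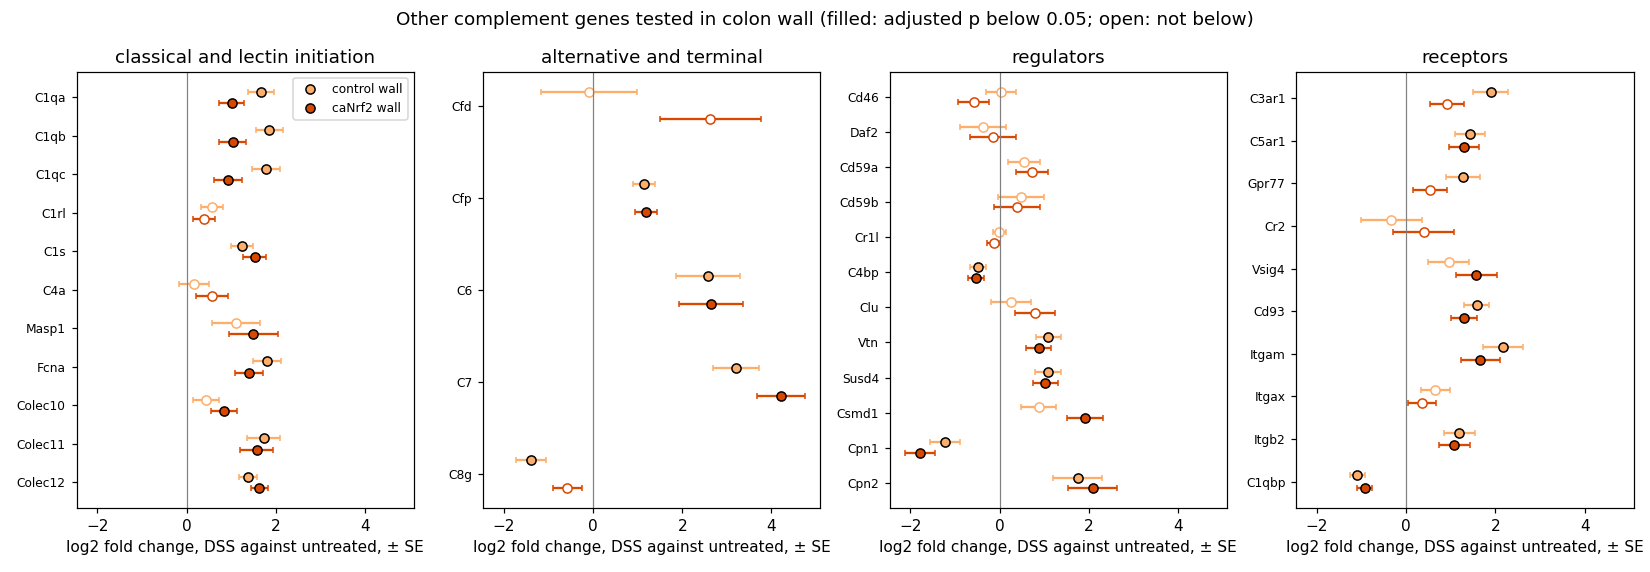
Log2 fold changes with SE (edgeR) for DSS against untreated colon wall in each genotype, for other complement genes tested, in panels by role; filled points passed an adjusted p of 0.05. Most filled points lie above 0, with C7 highest at 3.21 and 4.22, and C8g, C4bp, Cpn1 and C1qbp lie below 0.

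In epithelial cells most complement genes that differed from wall were lower. Of all genes tested, 19.7% were called lower and 18.9% higher in controls, and 23.5% lower and 20.0% higher in transgenic mice. Of 9 tested initiation genes 6 were lower and 1 higher in controls, and of 9 tested receptors 6 were lower, among them Itgb2 at -2.38 ± 0.36 and Cd93 at -2.63 ± 0.52 (edgeR adjusted p = 9.03e-05 and 0.000899). Among 11 regulators 4 were lower and 1 higher in controls, and 6 were lower and 1 higher in transgenic mice. Cd59a, a membrane inhibitor of the lytic complex, was at 36.4 CPM in control wall and 0.782 CPM in control epithelial cells as group means (log2 fold change -5.41 ± 0.51, edgeR adjusted p = 8.3e-07). Clu, which encodes clusterin, had a log2 fold change of -4.68 ± 0.54 (edgeR adjusted p = 6.89e-06). In the other direction, Hc, which encodes C5, was at 5.34 ± 2.91 CPM in control epithelial cells against 0.159 ± 0.138 CPM in control wall (log2 fold change 5.42 ± 0.72, edgeR adjusted p = 2.73e-05) and had a change of 5.67 ± 0.75 in transgenic mice (edgeR adjusted p = 2.28e-05). Cpn1 was also higher, by 2.32 ± 0.57 and 2.39 ± 0.58 (edgeR adjusted p = 0.00433 and 0.00321).

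A pair of lists of known inducers and companions of complement expression was counted beside these genes. Of 16 interferon response genes tested in wall 14 rose with DSS in controls and 7 in transgenic wall, against 23.1% of all genes in each (medians over the 16 of 1.65 and 0.88 on the log2 scale), among them Gbp2 by 1.79 ± 0.25 and 1.48 ± 0.25 (edgeR adjusted p = 0.000148 and 0.000373). None of these 16 passed the test of the difference between genotypes by edgeR or DESeq2, and 5 were below an unadjusted p of 0.05. Of 19 acute phase genes and NF-kB or STAT3 targets, 14 rose in controls and 15 in transgenic wall (medians over the 19 of 1.22 and 1.73 on the log2 scale). Lbp, which encodes a carrier of bacterial lipopolysaccharide, rose by 2.41 ± 0.22 and 2.49 ± 0.23 (edgeR adjusted p = 9.61e-06 and 7.06e-06), and Stat3 by 0.67 ± 0.13 and 1.09 ± 0.13 (edgeR adjusted p = 0.00103 and 5.18e-05). None of these 19 passed the test of the difference between genotypes by edgeR or DESeq2, and 2 were below an edgeR unadjusted p of 0.05.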

How the data were processed

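Per the file headers, each of 24 deposited files gives an estimated count (expected count) and TPM for 30383 RefSeq transcripts, made by the authors; the submitters' processing notes name RSEM 1.2.11, FastQC and mm10. No source used here gives the aligner or strand setting. Expected counts were summed per symbol and rounded. CPM used TMM-scaled library sizes. edgeR 4.0.16 (R 4.3.3) quasi-likelihood tests with filterByExpr and Benjamini-Hochberg adjustment were fitted for the 8 epithelial, the 16 wall, and the 16 untreated libraries, with each SE taken as |log2 fold change| over the root of its F. DESeq2 1.42.0 was an alternative. The deposited TPM was used for levels between genes. The steps were tested on simulated data. None of 36 library pairs within groups were duplicates (lowest chi-square per gene 10.5). The members and lists were chosen with earlier results of these data known. Other genes named were up to 3 per list, comparison and direction with the smallest adjusted p below 0.05. C1qc, Cfd and Cr1l fell outside that rule and were named after their values were seen. Values of a few genes that this rule or the measure of likeness picked are not reported here.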

Additional observations from a re-analysis of the deposited data

Results flagged for a closer look

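A pair of values among 48 groups of 4 libraries lay far from the rest of their group, where chance alone flags about 1 in 20 groups. C3 in epithelial control replicate 1 was at 131.5 CPM, with the next library at 30.04 CPM and the lowest at 12.44 CPM, so that 0.852 of the range was the gap. That library had the highest sum of the mesothelial markers among the epithelial libraries (21.02 CPM against 2.709 to 11.21 CPM) and of the neutrophil markers (21.52 CPM against 5.109 to 12.13 CPM); their part was not tested. Cfb in epithelial control replicate 3 was at 106.5 CPM, with the next at 78.03 CPM and the lowest at 75.36 CPM, a gap of 0.914 of the range. It is the control library with the lowest fibroblast and the highest epithelial marker sums.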

How the results depend on the processing

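Of the member results past the threshold, 554 recomputed values kept their call and 12 lost it, and none changed sign; among those not past it, 771 were the same, 6 passed and 71 changed sign. Members called ran from 5 to 7 for DSS in controls, 7 to 7 in transgenic wall, 4 to 5 and 5 to 6 for epithelial cells against control and transgenic wall; for the transgene in epithelial cells the count was 1 with DESeq2 and 1 without the pair of libraries that stood apart, a setting chosen after seeing the data. The cause of the sign changes was not tested. With median-ratio size factors, Cfb was at -0.030 for the transgene in untreated wall, 0.003 in DSS-treated wall and 0.034 for the interaction. DESeq2 gave -0.031, 0.004 and 0.034, and no filter 0.009 and 0.005 for the last 2. With only the 2 groups compared, Cfb in DSS-treated wall was at 0.027. Among libraries of the first leading number, Cfb was at -0.049 in untreated wall and 0.030 for the interaction, C2 at 0.078 in untreated wall and Cd55 at 0.229 in DSS-treated wall. The replicate numbers did not pair the libraries (r from -0.496 to 0.304, over 0.1 in 7 of 28 pairs). With the replicate block Cfb was at -0.002 in untreated wall, Serping1 at -0.012 for the interaction and C3 at 0.239 for the tissue difference, and the number of members called was the same in all 9 comparisons. The share of the main Cfb transcript for the transgene in DSS-treated wall was -0.001 percentage points with counts.

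With 1 library left out, the log2 values that changed sign ran over these ranges. For the interaction these were -0.159 to 0.358 for C1ra, -0.094 to 0.102 for Cfb, -0.177 to 0.200 for Serping1, -0.074 to 0.485 for C4b and -0.003 to 0.357 for Cd55. For the transgene in DSS-treated wall they were -0.083 to 0.067 for Cfb, -0.191 to 0.133 for Cd55, -0.102 to 0.275 for Serping1, -0.102 to 0.412 for C1ra and -0.012 to 0.518 for C4b, and the Cfb transcript share ran from -0.527 to 0.360 percentage points. In untreated wall C1ra ran from -0.027 to 0.141, C2 from -0.250 to 0.127, C4b from -0.142 to 0.199 and Cfb from -0.106 to 0.089. In epithelial cells C1ra ran from -0.802 to 0.062, C3 from -1.01 to 0.426 and Cfb from -0.247 to 0.083. For the tissue difference C3 ran from -0.679 to 0.793 and Cfb from -0.257 to 0.048.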
